A study of Mus musculus with 6 samples.

Results

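The genes described here are 44 cell cycle and proliferation genes, of which 42 were measured. They were taken from a list of cyclins, cyclin-dependent kinases (CDKs), DNA replication factors, mitotic kinases and motors, and CDK inhibitors, and were split by role into 2 G1 cyclins (both measured), 16 replication genes (15 measured), 24 mitosis genes (23 measured) and 2 CDK inhibitors (both measured). A gene was read from its brightest transcript cluster, the probe group that measures a transcript on the array, among clusters that carry exactly 1 gene symbol. Ccnb1 had no such cluster, and Ccne2 was present only in a cluster shared with its neighbour Ints8. The whole table held 22180 genes read in this way, and 13471 of them had a mean above background. Background was set at a log2 value of 5.47, the level that 95% of the 1108 olfactory receptor clusters did not exceed in the control arrays.

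The arrays measured whole jejunum from 3 KO mice, labelled hnf4alpha mutant, and 3 CTL mice, labelled control. In the KO mice, loxP-flanked Hnf4a on a C57BL/6 background was deleted by Cre under the villin promoter, which limits the deletion to the intestinal epithelium. The CTL mice came from the same breeding, without their exact alleles being given, and both genotypes ate a high fat diet for 12 weeks. The labels call the mice adult, and the study states an age range and a focus on male mice for its experiments in general, but nothing gave the sex or age of the mouse behind each array. Values are log2 signals after robust multi-array average (RMA) normalization, so a difference of 1 is a doubling. Because RMA equalizes the arrays, a change in total RNA would not be seen, and changes of dim genes are compressed.

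A dividing cell passes through G1, S phase, G2 and mitosis. D-type cyclins activate CDKs in G1, E2F factors then switch on the genes for DNA synthesis, the MCM helicase opens the DNA, and cyclin B with Cdk1, Plk1 and the aurora kinases drive mitosis. In the small intestine, stem cells and transit-amplifying cells divide in the crypts, whereas the differentiated cells of the villi do not, and lymphocytes of the gut wall can divide as well. In whole jejunum, fewer dividing cells and less of each RNA per dividing cell cannot be told apart.

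The 2 classes differ in the promoter elements they are known for. E2F sites mark many S phase genes, while the cell cycle genes homology region (CHR), bound by the DREAM and MuvB complexes, and CCAAT boxes, bound by NF-Y, mark many mitosis genes. RefSeq promoter windows (GRCm38.p6, 250 bases before to 50 after the transcription start) were found for 34 of the 44 listed genes. They were searched on both strands for the CHR letters TTTGAA or TTCGAA, the E2F letters TTTGGCGC, TTTCGCGC, TTTCCCGC or TTTGCCGC, and CCAAT. In the member windows, 1 match overlapped a match of another motif. The CHR letters were found for 14 of 18 mitosis genes (77.8%), 2 of 14 replication genes (14.3%) and 21.7% of the 27025 genes with a window. E2F letters were found for 1 of 18 mitosis genes (5.56%, Cdk1), 7 of 14 replication genes (50%) and 2.6% of all genes. CCAAT was found for 16 of 18 mitosis genes (88.9%), 9 of 14 replication genes (64.3%) and 41.1% of all genes.

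**Figure D1:**
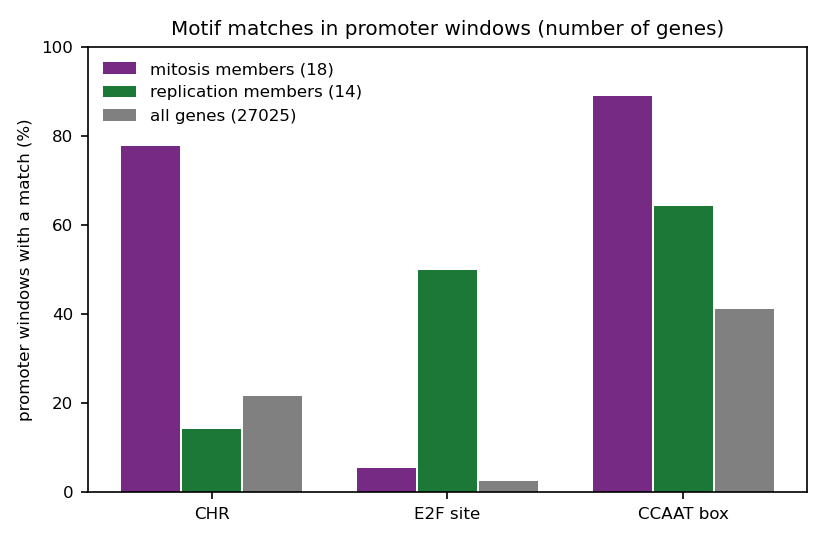
Share of genes (%, vertical axis) whose promoter window holds a CHR, E2F or CCAAT match, for mitosis genes (18), replication genes (14) and all genes. CHR letters were found for 77.8% of the mitosis genes and 14.3% of the replication genes, and E2F letters for 5.56% of the mitosis genes and 50% of the replication genes.

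The stretches below run 5′ to 3′ over 200 bases before to 30 after the start, with the motif letters in capitals on either strand. They are shown because they belong to mitosis genes that were among the lowest in KO relative to CTL and had motif matches (Top2a at chr11:99024160-99024389 and Kif23 at chr9:61946770-61946999) and to the replication genes at both ends of their range (Cdk2 at chr10:128705022-128705251 and Mcm3 at chr1:20820283-20820512). All 4 lie on the minus strand.
Top2a: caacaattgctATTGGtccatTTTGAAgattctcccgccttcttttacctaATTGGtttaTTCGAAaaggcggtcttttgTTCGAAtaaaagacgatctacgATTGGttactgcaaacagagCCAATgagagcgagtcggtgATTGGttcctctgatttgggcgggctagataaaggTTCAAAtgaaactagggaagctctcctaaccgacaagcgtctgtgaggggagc
Kif23: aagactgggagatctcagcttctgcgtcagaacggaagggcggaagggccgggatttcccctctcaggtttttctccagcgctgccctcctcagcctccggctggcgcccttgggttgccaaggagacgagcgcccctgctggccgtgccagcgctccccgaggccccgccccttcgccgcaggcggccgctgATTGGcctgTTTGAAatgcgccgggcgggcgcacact
Cdk2: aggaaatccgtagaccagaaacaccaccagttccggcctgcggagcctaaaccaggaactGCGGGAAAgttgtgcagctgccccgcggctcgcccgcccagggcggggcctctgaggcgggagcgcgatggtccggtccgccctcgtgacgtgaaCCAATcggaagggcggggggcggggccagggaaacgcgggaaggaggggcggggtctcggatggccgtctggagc
Mcm3: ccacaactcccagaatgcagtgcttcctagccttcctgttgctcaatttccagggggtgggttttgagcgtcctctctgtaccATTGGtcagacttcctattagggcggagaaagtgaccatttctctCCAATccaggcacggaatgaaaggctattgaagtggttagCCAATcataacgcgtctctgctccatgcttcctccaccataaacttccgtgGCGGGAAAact
The Top2a stretch held 4 CHR matches, the first starting at -179 relative to the start, and no E2F match. Kif23 had a single CHR match at 3 with a CCAAT box on the opposite strand at -7. Cdk2 had an E2F match at -140, and the printed Mcm3 stretch had one at 20. The Birc5 window held none of these letters. A match is a stretch of letters and was not tested as a binding site.

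Hnf4a itself served as the check of the labels. Its signal was 9.49, 9.25 and 9.11 on the KO arrays, against 10.74, 10.60 and 10.57 on the CTL arrays. The groups did not overlap, and the log2 difference was -1.35 ± 0.13 (SE; adjusted p by limma 0.111 over all clusters and 0.00743 over clusters with 1 symbol). Array medians lay between 5.53 and 5.58. The villus enterocyte markers were bright, with a mean log2 level over 13 genes of 12.4 to 12.5 on every array.

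No cell cycle gene differed between KO and CTL mice past the threshold, an adjusted p under 0.10 by limma, when all 41345 transcript clusters were fitted. In that fit 5 clusters (0.0121%) passed in the whole table. Among the members, 1 was higher and 4 were lower in KO at an unadjusted p under 0.05, where 3.48% of the genes above background were higher and 3.59% lower. In a fit limited to the 23521 clusters with 1 symbol, 111 clusters (0.472%) passed, and among them was a single member, Ccnd2. Of the 42 members, Ccnd2 alone differed by more than 0.5 on the log2 scale and 5 by more than 0.25, shares near those of the genes above background (2.19% and 11.3%). In all, 12 members lay above 0 and 30 below 0, with a median of -0.08, against a median of -0.01 over the genes above background.

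Ccnd2 encodes cyclin D2, a partner of Cdk4 and Cdk6 in G1, and lies on chromosome 6 from 127125162 to 127152188 (GRCm38). It had log2 signals of 10.44, 10.58 and 10.51 on the KO arrays, against 9.66, 10.08 and 9.68 on the CTL arrays. Every KO array was brighter than every CTL array, and the KO arrays lay closer together. The means were 10.51 ± 0.07 in KO and 9.81 ± 0.24 in CTL (SD, n = 3 each), a difference of 0.70 ± 0.14 (SE; 95% interval 0.37 to 1.03) or 1.63-fold. The adjusted p by limma was 0.382 over all clusters and 0.0902 over clusters with 1 symbol. The call in the narrower fit was lost when KO replicate 1 (adjusted p by limma 0.162), KO replicate 2 (0.355), KO replicate 3 (0.223), CTL replicate 1 (0.324) or CTL replicate 3 (0.237) was left out, while the difference stayed between 0.63 and 0.84.

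Ccnd1 encodes cyclin D1, the other D-type cyclin on the list, and lies on chromosome 7 from 144929931 to 144939831. It gave 7.97, 7.91 and 8.15 in KO, against 8.22, 8.64 and 8.20 in CTL. The KO arrays lay below the CTL arrays by a narrow gap. The difference was -0.34 ± 0.15 (SE; 95% interval -0.69 to 0.02; adjusted p by limma 0.715 over all clusters and 0.514 over clusters with 1 symbol). Without CTL replicate 2, the brightest array for this gene, it was -0.19. The 2 cyclins thus stood on opposite sides of 0. The third D-type cyclin, Ccnd3, and their kinases Cdk4 and Cdk6 differed by 0.10, 0.02 and -0.21, none past the threshold.

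**Figure D2:**
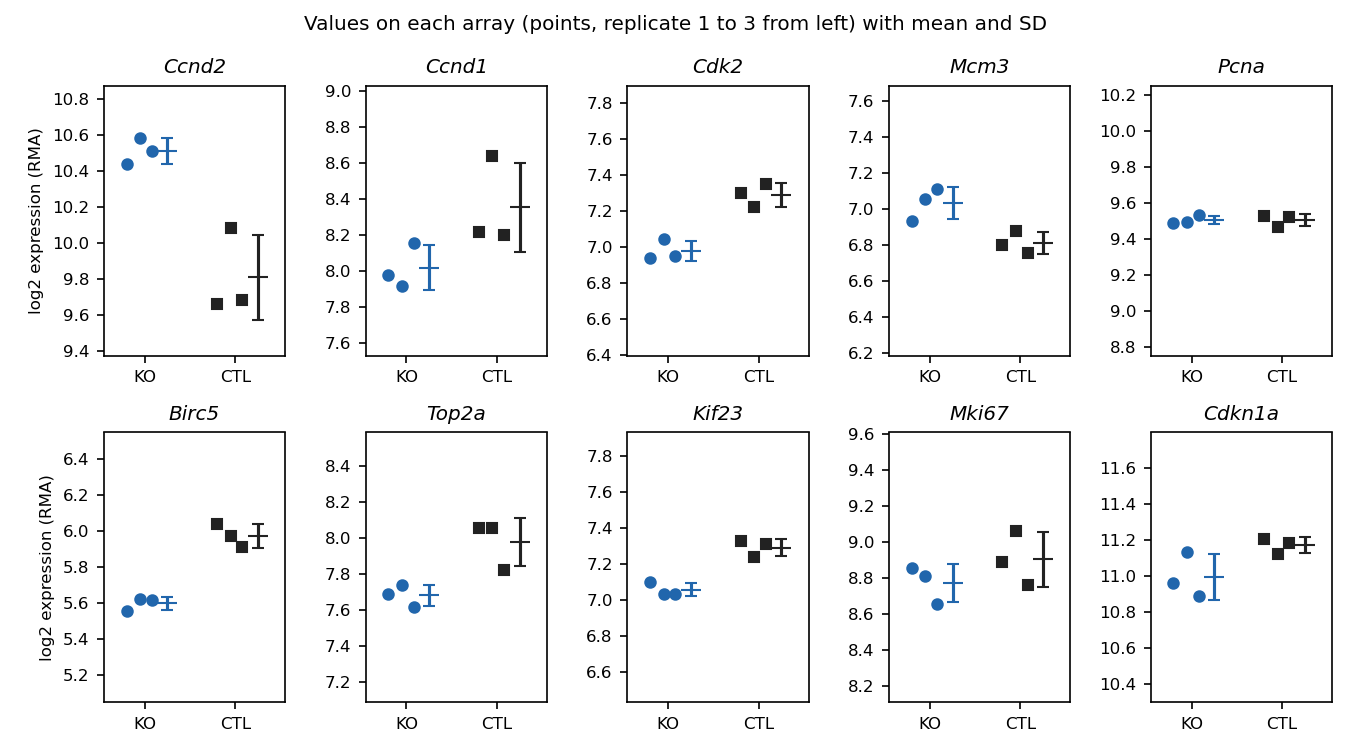
Log2 RMA signal (vertical axis, the same span in every panel) of 10 members on the 3 KO (left, blue) and 3 CTL (right, black) arrays, with the mean and SD beside the points. The KO arrays sit above all CTL arrays for Ccnd2 and Mcm3, below them for Ccnd1, Cdk2, Birc5, Top2a and Kif23, and overlap with them for Pcna, Mki67 and Cdkn1a.

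The 15 replication genes were balanced around 0. In KO, 8 lay above and 7 below the CTL mean, the median difference was 0.0014, and the range was -0.31 to 0.22. None passed the adjusted threshold, and in the fit over clusters with 1 symbol 1 was higher and 1 lower at an unadjusted p under 0.05, where 4.63% of the genes above background were higher and 4.64% lower. The groups did not overlap for 2 genes higher in KO (Mcm3 and Mcm6), with 7.34% of the background genes doing so, and for 1 gene lower in KO (Cdk2), with 9.09% of the background genes doing so.

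The 6 subunits of the MCM helicase, Mcm2 to Mcm7, all lay above 0, as did 6328 of the 13471 genes above background. The MCM differences were 0.03 to 0.22, with a median of 0.06. Mcm3, on chromosome 1 from 20802966 to 20820312, gave 6.93, 7.05 and 7.11 in KO, against 6.80, 6.88 and 6.75 in CTL. All 3 KO arrays were above the CTL arrays, by 0.22 ± 0.10 on average (SE; 95% interval -0.01 to 0.45; adjusted p by limma 0.540 over clusters with 1 symbol). Mcm4 gave 7.04, 7.002 and 7.17 in KO, against 6.95, 7.13 and 6.90 in CTL. Mcm5 gave 7.22, 7.26 and 7.26 in KO, against 7.06, 7.29 and 7.20 in CTL. Both overlapped between the groups, at 0.07 ± 0.11 and 0.06 ± 0.10 (SE). The sign of Mcm7 turned when KO replicate 2 or CTL replicate 1 was left out (-0.04 and -0.07). Without CTL replicate 1, Mcm2 was at 0.008 and Mcm5 at 0.0023. Of the loading factors that act before the helicase, Cdt1 differed by -0.03, and Cdc6 gave 5.68, 5.91 and 5.69 in KO, against 6.10, 5.91 and 5.88 in CTL. Cdc6 overlapped and was 0.20 ± 0.11 lower in KO (SE).

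Cdk2, the S phase kinase, was the lowest replication gene and lies on chromosome 10 from 128697938 to 128705051. Its signals were 6.94, 7.04 and 6.95 on the KO arrays, against 7.30, 7.22 and 7.35 on the CTL arrays. The groups were separate and tight, with a difference of -0.31 ± 0.09 (SE; 95% interval -0.53 to -0.09; adjusted p by limma 0.588 over all clusters and 0.328 over clusters with 1 symbol). Its partner Ccne1 differed by -0.09 and E2f1 by -0.01. Pcna, the sliding clamp of DNA polymerase, gave 9.49, 9.50 and 9.53 in KO, against 9.53, 9.47 and 9.52 in CTL. The difference was 0.0014 ± 0.09 (SE), and its 95% interval ran from -0.20 to 0.21. Among the enzymes of nucleotide supply, Rrm2, a ribonucleotide reductase subunit, gave 5.95, 6.35 and 6.22 in KO, against 6.23, 6.51 and 6.48 in CTL. Its groups overlapped at a difference of -0.24 ± 0.14 (SE), which was -0.13 without KO replicate 1. Rrm1, the other subunit, and Tyms, thymidylate synthase, differed by -0.03 and 0.02.

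**Figure D3:**
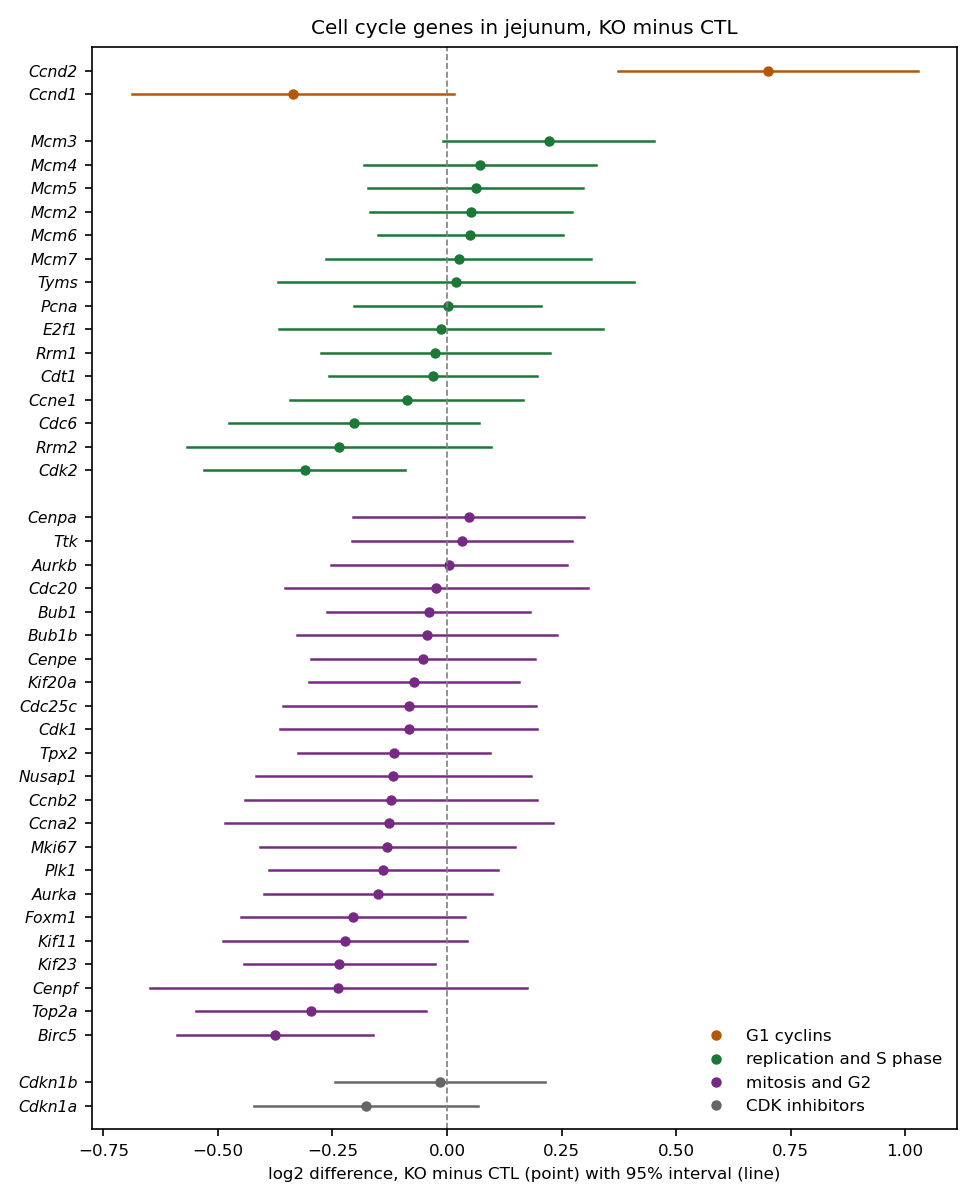
Log2 difference, KO minus CTL (horizontal axis, point), with its 95% interval (line) for the 42 measured members, grouped by role. Most mitosis genes lie left of 0 at up to -0.38, replication genes lie on both sides, and Ccnd2 stands apart at 0.70.

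The mitosis genes leaned lower in KO by small amounts. Of 23, 20 lay below 0 (87%) and 3 above, with a median of -0.12 and a range of -0.38 to 0.05. Below 0 lay 53% of the genes above background and 47.3% of all genes. No mitosis gene passed the adjusted threshold in either fit, and 3 (Birc5, Top2a and Kif23) were lower at an unadjusted p under 0.05 in both fits, beside 3.59% of the genes above background in the fit over all clusters and 4.64% in the other. The groups did not overlap for 6, all lower in KO (Birc5, Top2a, Kif23, Kif11, Foxm1 and Tpx2), beside 9.09% of the genes above background. Genes of a class are not independent of each other, and no test of the class as a whole was made.

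Birc5 encodes survivin, a subunit of the chromosomal passenger complex, and lies on chromosome 11 from 117849237 to 117855743. It gave 5.55, 5.62 and 5.61 in KO, against 6.04, 5.97 and 5.91 in CTL. The groups did not overlap, and the KO arrays were close to the background level of 5.47, where a difference is compressed. The difference was -0.38 ± 0.09 (SE; 95% interval -0.59 to -0.16), or 1.30-fold lower in KO, with an adjusted p by limma of 0.487 over all clusters and 0.209 over clusters with 1 symbol. The complex's kinase, Aurkb, gave 7.33, 7.51 and 7.25 in KO, against 7.42, 7.37 and 7.28 in CTL. It overlapped at a difference of 0.0045 ± 0.11 (SE).

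Top2a, the topoisomerase that disentangles chromosomes before they separate, lies on chromosome 11 from 98992947 to 99024199. It gave 7.69, 7.74 and 7.62 in KO, against 8.06, 8.05 and 7.83 in CTL. KO lay below CTL on every array, by 0.30 ± 0.11 (SE; adjusted p by limma 0.647 over all clusters and 0.416 over clusters with 1 symbol). A pair of clusters shared with the symbol Taf1d differed by -0.27 and -0.22. Kif23, a kinesin of the central spindle on chromosome 9 from 61917277 to 61946810, gave 7.10, 7.04 and 7.03 in KO, against 7.33, 7.24 and 7.31 in CTL. The groups were separate, with a difference of -0.24 ± 0.09 (SE; adjusted p by limma 0.659 over all clusters and 0.473 over clusters with 1 symbol). Kif11, the motor that separates spindle poles, Foxm1, a transcription factor of G2 and mitosis genes, and Tpx2, a spindle assembly factor, differed by -0.22, -0.20 and -0.12. Without CTL replicate 2, Kif11 was at -0.14.

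Cenpf, a kinetochore protein, gave 6.44, 6.21 and 6.19 in KO, against 6.52, 6.83 and 6.20 in CTL. The groups overlapped, and the difference of -0.24 ± 0.17 (SE) was -0.08 without CTL replicate 2. Mki67, which encodes the proliferation marker Ki-67, lies on chromosome 7 from 135689784 to 135716450 and gave 8.86, 8.81 and 8.65 in KO, against 8.89, 9.06 and 8.76 in CTL. The groups overlapped at -0.13 ± 0.12 (SE), and the 95% interval of -0.41 to 0.15 includes changes in either direction. Without CTL replicate 2, the difference of Mki67 was -0.05. At the upper end of the class, Ttk, a spindle checkpoint kinase, gave 6.36, 6.34 and 6.19 in KO, against 6.36, 6.18 and 6.24 in CTL, a difference of 0.03 ± 0.10 (SE). Cenpa, the centromeric histone H3 variant, gave 6.93, 6.90 and 6.84 in KO, against 6.68, 6.94 and 6.91 in CTL, a difference of 0.05 ± 0.11 (SE). Both overlapped, and the sign turned without CTL replicate 2 for Ttk and without CTL replicate 1 for Cenpa.

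The other mitosis genes lay between these. The mitotic cyclins Ccna2 and Ccnb2 differed by -0.13 and -0.12 and their kinase Cdk1 by -0.08. Aurka and Plk1, kinases of the centrosome and of mitotic entry, differed by -0.15 and -0.14. Cdc20, the activator of the anaphase-promoting complex, and the checkpoint kinases Bub1 and Bub1b differed by -0.02, -0.04 and -0.04. Nusap1 and Cenpe, which bind microtubules and kinetochores, differed by -0.12 and -0.05, and Kif20a, another central spindle motor, by -0.07. Cdc25c, the phosphatase that activates Cdk1, differed by -0.08 but had 3 arrays at or below background, where a difference is compressed.

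**Figure D4:**
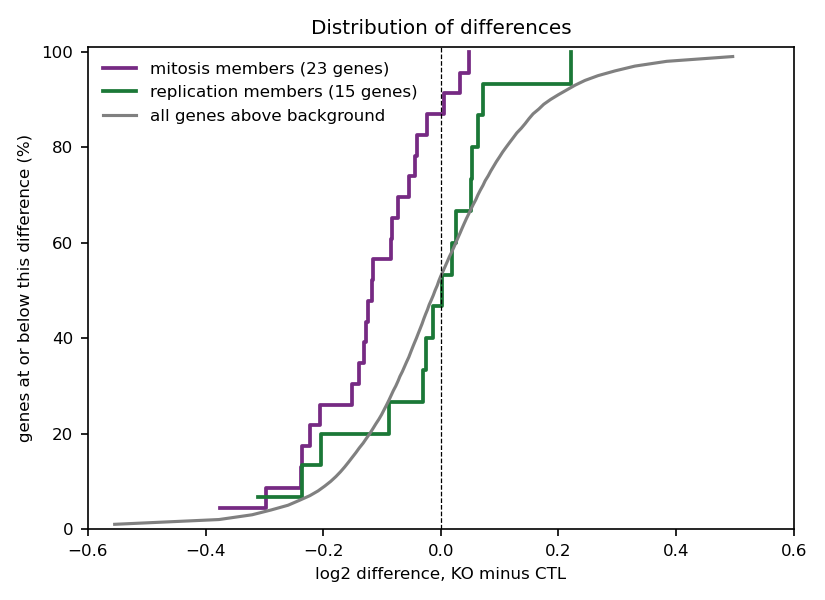
Cumulative share of genes (%, vertical axis) at or below each log2 difference, KO minus CTL (horizontal axis), for the mitosis members, the replication members and all genes above background. At a difference of 0 the mitosis line is at 87% of its genes, against 53% of all genes above background, and the lines cross in the lower tail.

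Averaged over the class, the 23 mitosis genes were at -0.07, -0.13 and -0.17 on the KO arrays, against -0.04, 0.09 and -0.05 on the CTL arrays, relative to the CTL mean. The KO mean was -0.12 ± 0.05, with CTL at 0 ± 0.08 (SD, n = 3 each). The groups were separated by a narrow gap, between KO replicate 1 at -0.07 and CTL replicate 3 at -0.05. CTL replicate 2 was the highest array for 12 of the 23 genes, and KO replicate 3 the lowest for 10. Over all 22180 genes, CTL replicate 2 was the highest for 3657 and KO replicate 3 the lowest for 3218. Without CTL replicate 2, 16 of 23 genes were below 0 and the median was -0.07. The 15 replication genes averaged -0.07, 0.02 and -0.03 on the KO arrays, against -0.06, 0.07 and -0.01 on the CTL arrays. The groups overlapped. The mean of the mitosis genes minus that of the replication genes was -0.0024, -0.14 and -0.14 on the KO arrays, against 0.02, 0.02 and -0.04 on the CTL arrays. KO replicate 1 lay among the CTL arrays, so the groups overlapped in this measure.

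The CDK inhibitors did not pass the threshold. Cdkn1a encodes p21, which halts the cycle on DNA damage or differentiation, and lies on chromosome 17 from 29090979 to 29100722. It gave 10.96, 11.14 and 10.89 in KO, against 11.21, 11.12 and 11.19 in CTL. The groups overlapped through KO replicate 2 and CTL replicate 2, at a difference of -0.18 ± 0.10 (SE; 95% interval -0.42 to 0.07). Cdkn1b encodes p27, which restrains Cdk2, and lies on chromosome 6 from 134920401 to 134925525. It gave 7.59, 7.79 and 7.76 in KO, against 7.75, 7.73 and 7.70 in CTL. Its groups overlapped, with a difference of -0.01 ± 0.10 (SE).

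Other cell cycle genes, on lists drawn up by role, gave 156 measured of 167, of which 51 lay above and 105 below 0 with a median of -0.04. None passed the threshold in either fit. In the fit over clusters with 1 symbol, 1 was higher and 5 were lower at an unadjusted p under 0.05 by limma. Of the genes above background, 4.63% were higher and 4.64% lower at that p. The genes named below were picked by their p. Of 53 other replication genes, 20 were above and 33 below 0 (median -0.04). Pold2, a polymerase delta subunit, Rfc5, of the clamp loader, and Dbf4, the activator of the Cdc7 kinase, had the smallest p among those below 0, at -0.29, -0.25 and -0.25. Rad51ap1, Pole2 and Gins3 had the smallest p among those above 0, at 0.17, 0.17 and 0.31. Of 66 other mitosis genes, 15 were above and 51 below 0 (77.3%; median -0.05). Relative to the CTL mean, they averaged -0.03, -0.06 and -0.08 on the KO arrays, against 0.006, 0.08 and -0.08 on the CTL arrays. The groups overlapped through CTL replicate 3, and CTL replicate 2 was the highest array for 28 of the 66 genes. The motors Kif22 and Kif18a and the lamin Lmnb1 had the smallest p below 0, at -0.29, -0.26 and -0.27, while Pttg1, Psrc1 and Cdc25b had it above 0, at 0.14, 0.12 and 0.11. Of 37 other cell cycle regulators, among them G1 kinases, E2F and MuvB factors, checkpoint kinases and p53 pathway genes, 16 were above and 21 below 0 (median -0.03). E2f5, Ccnh and E2f3 had the smallest p above 0, at 0.28, 0.25 and 0.19, and E2f2, Tfdp2 and Cdkn2b below 0, at -0.24, -0.22 and -0.22.

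Markers of the cell types in the tissue varied beside these genes. The 14 crypt base stem cell markers averaged 0.20, 0.06 and -0.07 on the KO arrays, against -0.02, 0.03 and -0.02 on the CTL arrays, with 8 of 14 above 0 and a median of 0.04. The groups overlapped. Of 13 villus enterocyte markers 7 were above 0 and 6 below, and the array means lay within -0.04 to 0.06 of the CTL mean. The 12 T and NK cell markers averaged -0.36, -0.50 and -0.47 on the KO arrays, against -0.08, -0.05 and 0.13 on the CTL arrays. The groups did not overlap. The markers were lower in KO for 11 of 12, with a median of -0.45, while 2 had a mean at or below background. None of them passed the threshold over all clusters. Over clusters with 1 symbol 4 passed, where 111 of the 23521 clusters (0.472%) did so. Smooth muscle markers averaged -0.06, -0.36 and -0.31 on the KO arrays, against -0.12, 0.33 and -0.21 on the CTL arrays. The groups overlapped. All 9 were below 0 in KO, with a median of -0.29. CTL replicate 2 was the highest array for all 9, as it was for 12 of the mitosis genes. The 12 B cell markers, of which 6 had a mean at or below background, had a median of 0.12, and the 7 plasma cell markers one of -0.10. The fibroblast markers were above 0 in KO for 8 of 8, with a median of 0.25, and the goblet cell markers for 9 of 9, with a median of 0.33. Their array means were 0.37, 0.28 and 0.17 in KO, against -0.27, 0.19 and 0.08 in CTL for fibroblasts, and 0.33, 0.38 and 0.32 in KO, against -0.23, 0.13 and 0.10 in CTL for goblet cells. The groups overlapped for fibroblasts and did not overlap for goblet cells. The 9 Paneth cell markers averaged 0.53, 0.62 and -0.24 on the KO arrays, against -0.67, 0.35 and 0.32 on the CTL arrays. Their groups overlapped, and the median difference was 0.19. The part of these cell types in the values of the mitosis genes or of Ccnd2 was not tested.

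**Figure D5:**
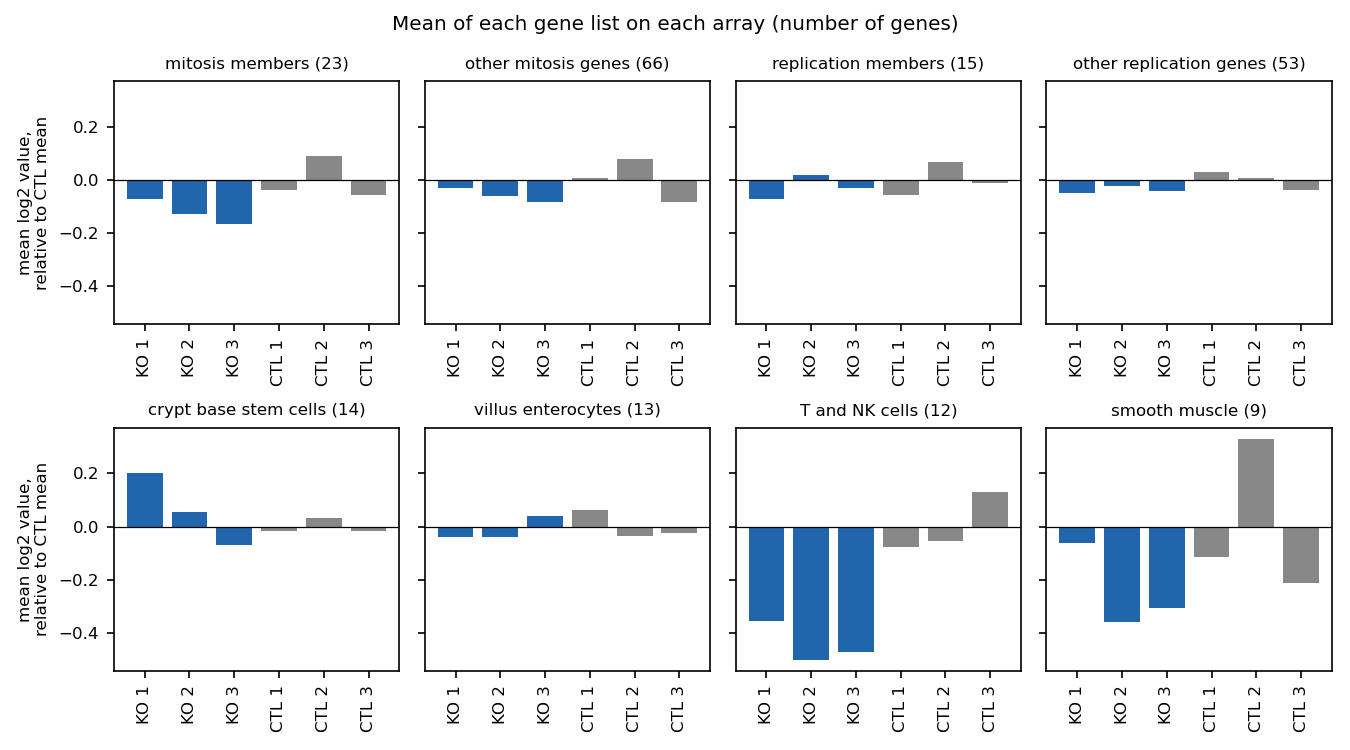
Mean log2 value relative to the CTL mean (vertical axis) of 8 gene lists on the 3 KO (left, blue) and 3 CTL (right, grey) arrays. The mitosis members are at -0.07 to -0.17 in KO and -0.05 to 0.09 in CTL, and T and NK cell markers are at -0.36 to -0.50 in KO and -0.08 to 0.13 in CTL.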

How the data were processed

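The authors isolated total RNA from whole jejunum of 3 KO and 3 CTL mice, hybridized it to Affymetrix arrays and made log2 expression values with Transcriptome Analysis Console and RMA. The sources used here did not state their versions. The transcript cluster identifiers in the deposited log2 table belong to a Mouse Gene ST design, while the methods name another Affymetrix array. No column of the table was left without a sample. Arrays carry no read depth, and their number limits the precision.

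The values were fitted with limma 3.58.1 in R 4.3.3 (lmFit and eBayes, 2-sided, Benjamini-Hochberg over all clusters, adjusted p under 0.10 after the methods). The fit was also run on simulated arrays with independent noise in each cluster. Shifts that many genes of an array share were not simulated. An exact permutation test of 3 against 3 arrays cannot go below p = 0.1, so none was used. Symbols came from the platform annotation, with 23521 clusters carrying 1 symbol, 1820 several and 16004 none, and positions and promoters from RefSeq. The members, gene lists and tests were chosen with earlier results of these data known. Values on every array are given for members with an unadjusted p under 0.05 in either fit, for the 3 highest and 3 lowest replication and mitosis genes, and for Mki67, Pcna, Ccnd1, Ccnd2, Cdkn1a and Cdkn1b, and of each other list up to 3 genes with the smallest p in each direction are named. Replicate numbers were read only as names of arrays. Deviations of same-numbered arrays correlated at -0.0755, 0.00096 and -0.12, which shows no pairing but cannot exclude one. Nothing in the sources used here gave scan batch, litter or cage. Alternatives changed the clusters fitted, the normalization, the variance model, the threshold, a replicate block and which array was left out.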

Additional observations from a re-analysis of the deposited data

How the results depend on the processing

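The direction of the mitosis median held under every alternative run (-0.16 to -0.07 on leaving out 1 array; -0.12 as reported), while the replication median, 0.0014 as reported, was -0.0101 with arrays centred on their median and -0.062 to 0.0557 on leaving out 1 array, so it has no settled sign. Their difference was -0.197 to -0.0611 on leaving out 1 array. In the lists of other cell cycle genes the 2 medians lay close together, at -0.0496 for mitosis and -0.0413 for replication. Instead of 5, the clusters called were 111 over clusters with 1 symbol, 34 with dim clusters left out, 17 with an intensity trend and robust prior, 0 with unmoderated statistics (2803 at an unadjusted p under 0.05), 0 at an adjusted p under 0.05 (2926 at an unadjusted p under 0.05), 0 with the replicate block (2585 at an unadjusted p under 0.05) and 0 to 16 on leaving out 1 array. The replicate numbers mark no known pairs. Member genes called numbered 1 over clusters with 1 symbol and 0 in the other alternatives over all clusters.

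In alternatives chosen after seeing the data, all over clusters with 1 symbol, the adjusted p of Ccnd2 by limma was 0.0902, 0.0341 to 0.355 on leaving out 1 array, 0.115 with the replicate block and 0.466 with unmoderated statistics, and under the threshold with trend and robust prior (0.0358), dim clusters left out (0.0435), repeated quantile normalization (0.0991), array weights (0.0828) and centred arrays (0.0972). Birc5 was at 0.209 and passed only with dim clusters left out (0.0953). Of 504 single-gene values under alternatives, 28 turned sign, in 15 genes. With 3 mice a group, small shifts stay within the intervals given.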

Other observations

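Clusters that carry several symbols were kept out of the gene values. The cluster shared by Ccne2 and Ints8 gave 6.06, 6.70 and 6.40 in KO, against 6.91, 6.48 and 6.83 in CTL, a difference of -0.35 ± 0.19 (SE), and cannot be assigned to either gene. The cluster of Tyms with its pseudogene Tyms-ps gave 4.31, 4.20 and 4.19 in KO, against 3.93, 3.89 and 3.98 in CTL. Its KO arrays were all higher, by 0.30 ± 0.09 (SE; adjusted p = 0.602 by limma over all clusters), on a signal below background, while the single-symbol Tyms cluster differed by 0.02.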
